A study of Mus musculus with 4 samples.

Results

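The fibroblasts of the wire-injured mouse carotid artery were compared between days 7 and 14 after injury. A cell barcode of either library was counted as a fibroblast when the 6 matrix and stromal genes Dcn, Lum, Dpt, Pdgfra, Serpinf1 and Mfap5 together made up at least 0.1% of its unique molecular identifiers (UMIs), when the 4 muscle genes Myh11, Acta2, Tagln and Myl9 stayed under 0.5%, and when it held at most 1 UMI of the leukocyte gene Ptprc. Barcodes also needed at least 500 genes, at least 1000 UMIs and at most 10% mitochondrial UMIs. The fibroblasts were thus chosen by measured UMIs of these genes, which support nothing below. This gave 717 fibroblasts of the 6161 barcodes of the series, 225 at day 7 and 492 at day 14.

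The series followed carotid arteries of C57BL/6 mice, 11 weeks old before injury, by single-cell RNA-sequencing before a wire was passed through the left carotid (day 0) and at days 3, 7 and 14 after it. Per the study's methods, the mice were male, at least 5 carotids were pooled for each time point, thrombosed vessels were left out, and the digested tissue was freed of dead cells before droplet capture. The cells carried no lineage label, so the origin of a fibroblast was not recorded. Each day was 1 library. No difference between days could therefore be tested or told apart from a difference between libraries, and all intervals below are 95% intervals of counting error only.

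Fibroblasts of a healthy artery lie mainly in the adventitia, the outer coat of the vessel, where they make collagen, elastic fibre proteins and proteoglycans. After injury, fibroblasts can divide, secrete chemokines that attract leukocytes, take up contractile genes and lay down provisional matrix, and they can return towards a resting state as the wound matures. The genes of these programmes were read here as the ratio of the day 14 to the day 7 level, each level being the UMIs of a gene summed over all fibroblasts of the day and scaled to a total of 1000000 UMIs (CPM).

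Some facts of the 2 libraries preceded every comparison. Fibroblasts made up 225 of 2018 barcodes that passed the quality filters at day 7 (11.1%, exact binomial interval 9.81% to 12.6%) and 492 of 880 at day 14 (55.9%, 52.6% to 59.2%). The same gate gave 85.1% at day 0 and 13.4% at day 3. With limits of 200 genes and 20% mitochondrial UMIs instead, the day 7 share was 21.1%. It was 7.63% with the 6 selection genes at 0.5% or more. The fibroblasts held 5029115 UMIs at day 7 and 8918835 at day 14. Their depth was spread more widely at day 7, where 72 cells (32.0%) had under 2000 UMIs and 51 cells (22.7%) had over 40000. Those 51 deep cells held 59.6% of the day 7 UMIs, against 2.88% held by 5 such cells at day 14. The numbers of cells in which a gene was seen, given below, depend on this depth and are not measures of spread alone. Median depths were 12129 and 18773.5 UMIs per cell, and median mitochondrial shares 3.68% and 2.32%. The 13 measured mitochondrially encoded genes summed to 38244 and 24451 CPM, with a median log2 ratio of −0.44. All 6 selection genes were seen in 115 day 7 cells (51.1%) and in 399 day 14 cells (81.1%), and fewer than 3 of them in 27 and 10 cells. Genes of the 4 leukocyte marker lists took at least 0.5% of the UMIs in 51 day 7 cells, which had a median of 1152 UMIs and held 1.38% of the day 7 total, and in 4 day 14 cells. The libraries of days 7 and 14 shared 64 barcodes. Of the day 14 copies, 62 were the shallower ones, with a median 89.6 times more UMIs under the same barcode at day 7, and 2 of these were day 14 fibroblasts. At day 7, 1 fibroblast was the shallower copy. The libraries of days 0 and 3, whose values are given for context only, shared 152 barcodes, and 6 of 212 day 0 and 17 of 160 day 3 fibroblasts were the shallower copies. Without the 3 cells of days 7 and 14, 353 and 464 genes passed the thresholds for a higher or lower level given below, against 353 and 461 with them.

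**Figure D1:**
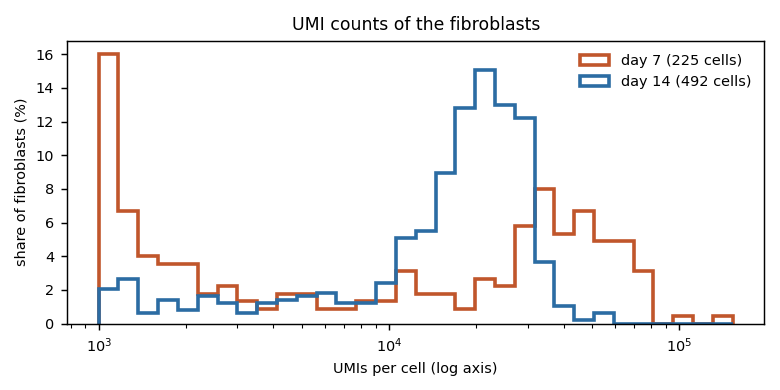
Share of fibroblasts (%) by UMIs per cell on a log axis, for day 7 (225 cells) and day 14 (492 cells). The day 7 cells gathered at the 2 ends, with 32.0% under 2000 and 22.7% over 40000 UMIs, and the day 14 cells around a median of 18773.5.

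The selection genes chose the cells, and their values are given as a description. Dcn, which encodes the collagen-binding proteoglycan decorin, stood at 6534 CPM at day 7 and 12960 at day 14. Serpinf1, which encodes the secreted protein PEDF, stood at 973 and 2074 CPM, Dpt (dermatopontin) at 1038 and 1879, Lum (lumican) at 2297 and 2752, Mfap5 (a microfibril protein) at 2554 and 2600, and Pdgfra (a growth factor receptor) at 181 and 253. The cells nearest the limit held 0.107% and 0.102% of these genes just inside it at days 7 and 14, and 0.0973% and 0.0971% just outside. For the muscle genes, the values were 0.484% and 0.477% inside and 0.501% and 0.503% outside. Levels of Col1a1, which the rule did not use, were set beside those of other cells as a description. The paper names Col1a1 among markers of SEM cells (stem cell, endothelial cell, monocyte), a cluster it separates from fibroblasts after injury. Col1a1 therefore cannot tell fibroblasts from SEM cells, which were not separated here. Col1a1 stood at 17956 and 20496 CPM in the fibroblasts, against 4375 and 1299.9 CPM in the 16 and 42 cells positive for muscle genes. The latter held at least 0.5% of muscle gene UMIs, at most 1 Ptprc UMI and under 0.1% of the selection genes. Leukocytes (cells with at least 2 Ptprc UMIs and under 0.1% of the selection genes) held 162 and 129 CPM. Both the muscle gene-positive cells and the leukocytes were chosen to be low in the selection genes, so their Col1a1 levels do not test the fibroblast label. Markers of other cell types were measured in the same sums. The smooth muscle and pericyte list, which holds the 4 genes limited by the rule, was the highest at 1361 CPM at day 7 and 602 at day 14, against 159 and 73.2 in leukocytes. The macrophage list summed to 188 CPM in the fibroblasts of day 7 and 38.1 at day 14, against 13838 and 16174 CPM in leukocytes. The dendritic and B cell list summed to 341 and 64.9, the T and NK cell list to 29.0 and 6.62, the endothelial list to 60.1 and 12.1, the Schwann cell list to 30.2 and 30.3, and the neutrophil list to 10.7 and 0.224. The erythroid list stood at 15.9 and 3.48, the skeletal muscle list at 4.97 and 3.92, the mesothelial and epithelial list at 3.38 and 0, the adipocyte list at 0 and 0.224, and the chondrocyte list at 13.7 and 246.

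The bulk of genes lay within 2-fold, although the counting interval excluded 1 for 52.5% of them. Among 8899 genes with at least 20 UMIs in all and at least 10 CPM on 1 of the 2 days, the median log2 ratio was −0.02 (interquartile range −0.32 to 0.27). Genes were counted as higher or lower when they differed at least 2-fold and the counting interval excluded 1. By this, 353 genes (3.97%) were higher and 461 (5.18%) were lower at day 14, 9.15% together, and 84 and 121 of them differed at least 4-fold. Counts of called genes in the lists below stand against these shares, and few or no called genes in a short list is near them. Averaging CPM over cells gave 1413 lower genes, and leaving out each gene's top 1% of cells gave 304. As the deep day 7 cells and some small groups of cells carried many UMIs, each call was also sought under 5 alternatives: without Col2a1-positive cells, without cells holding 0.5% of leukocyte marker UMIs, without the 1% of cells with most UMIs of the gene, in cells of 10000 to 40000 UMIs, and without cells positive for Saa3 or Lcn2. Under all 5, 155 of the 353 higher genes (43.9%) and 164 of the 461 lower genes (35.6%) kept their call. These are named as holding under all 5 below.

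The 12 genes highest at day 14 relative to day 7 were taken without the selection genes and Col2a1, which is described last. Among them, Gpc3, a heparan sulphate proteoglycan of the cell surface, stood at 16.3 CPM at day 7 and 235 at day 14, a 14.4-fold difference (11.5 to 18.2). It was seen in 30 of 225 cells at day 7 and in 225 of 492 at day 14, and in cells with 10000 to 40000 UMIs the difference was 9.55-fold. Among cells of at least 5000 UMIs, Gpc3 was seen in 20.2% at day 7 and 51.9% at day 14. Col6a6, a chain of the collagen VI microfibrils, stood at 9.54 and 90.5 CPM (9.48-fold, 7.08 to 13.0). Fbln7, a fibulin that binds cells to matrix, stood at 34.6 and 271 CPM (7.84-fold, 6.72 to 9.20), and F3, the tissue factor that starts coagulation, at 38.0 and 271 CPM (7.14-fold, 6.16 to 8.32). These 4 genes were spread over the day 14 cells, since the 5 cells with most UMIs held 7.89% to 10.8% of their UMIs. In cells of 10000 to 40000 UMIs the differences were smaller, at 3.98-fold for Col6a6, 4.27-fold for Fbln7 and 3.46-fold for F3.

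Apoe, the lipid-carrying apolipoprotein E, was the most abundant of the 12 highest genes, with 417 CPM at day 7 and 2352 at day 14 (5.65-fold, 5.40 to 5.91). Leukocytes held it at 5064 and 10826 CPM, and the difference in Apoe ran from 2.05-fold in cells thinned to 1000 UMIs to 6.24-fold without fibroblasts carrying leukocyte marker UMIs, with 3.52-fold in cells of 10000 to 40000 UMIs. Igfbp5, which binds insulin-like growth factors, stood at 189 and 1072 CPM (5.66-fold, 5.30 to 6.06). Its median in single day 14 cells of at least 5000 UMIs was 35.2 CPM and its 90th percentile 2984, so the level was carried by a portion of the cells. Txnip, which binds thioredoxin and restrains glucose uptake, stood at 79.3 and 442 CPM (5.58-fold, 5.03 to 6.20). Cpz, a carboxypeptidase that binds Wnt proteins, stood at 27.6 and 167 CPM (6.02-fold, 5.06 to 7.22), and Adm, the vasodilator peptide adrenomedullin, at 14.9 and 114 CPM (7.64-fold, 6.04 to 9.79). Dpp4, a surface peptidase known from adventitial progenitor-like fibroblasts, stood at 7.16 and 50.2 CPM (7.02-fold, 4.99 to 10.1) and was seen in 12 and 94 cells. Among cells of at least 5000 UMIs, Dpp4 was seen in 5.43% at day 7 and 21.5% at day 14. The differences in cells of 10000 to 40000 UMIs were 3.59-fold for Igfbp5, 3.845 for Txnip, 4.03 for Cpz, 5.10 for Adm and 4.35 for Dpp4. Without the 1% of cells with most UMIs of the gene, Adm was 13.2-fold and Dpp4 18.3-fold higher.

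Scg2 and Col10a1 had the largest ratios and the fewest cells. Scg2, a secretogranin of secretory granules, had 2 UMIs at day 7 and 783 at day 14 (221-fold, 60.9 to 1826). It was seen in 1 and 37 cells. Col10a1, a collagen of hypertrophic cartilage, had 1 UMI at day 7 and 530 at day 14 (299-fold, 53.4 to 11826), and 99.2% of the 530 lay in 1 cell, so the ratio rests on that cell, which had 0 Dcn UMIs. Of the 12 highest genes, Col10a1 was the 1 that did not hold under all 5 alternatives. Neither gene had a UMI in the fibroblasts of day 0 or day 3.

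**Figure D2:**
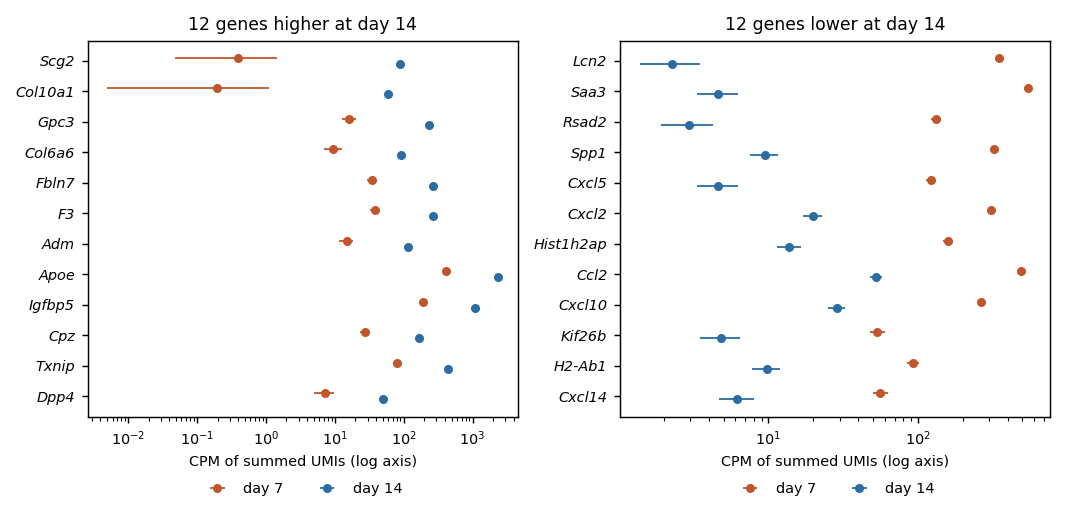
CPM of summed UMIs on a log axis for 12 genes higher (left) and 12 lower (right) at day 14, those farthest from 1 by their interval apart from selection genes and Col2a1, with day 7 and day 14 as points and 95% Poisson counting intervals as bars. Gpc3 went from 16.3 to 235 CPM and Saa3 from 550 to 4.60 CPM. The intervals of the 2 days did not overlap for any of the 24 genes, but these were chosen by their intervals, so this is no separate result.

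The 12 genes lowest at day 14 included 2 acute phase genes and 5 chemokines. Saa3, the serum amyloid A made outside the liver, stood at 550 CPM at day 7 and 4.60 at day 14, 120-fold lower (88.0 to 167). Lcn2, the iron-siderophore binding lipocalin, stood at 352 and 2.24 CPM, 157-fold lower (101 to 258). Day 3 fibroblasts held 3460 and 665 CPM of these genes, and day 0 fibroblasts 0.451 and 1.80. Both were uneven at day 7, where 5 cells held 92.3% of the Saa3 and 91.6% of the Lcn2 UMIs, and 51 of 225 cells had a UMI of either gene against 12 of 492 at day 14. In cells of 10000 to 40000 UMIs, the ratios were 0.00912 for Saa3 and 0.0629 for Lcn2.

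The 250 bases before the start of 4 of these genes are shown because they were among the 12 lowest genes and carry letters of the binding sites of inflammatory transcription factors. They were taken from RefSeq on GRCm38.p6, on the strand of the gene, and end at the base before the start: Saa3 at chr7:46715677-46715926 (minus strand), Lcn2 at chr2:32387740-32387989 (minus), Cxcl2 at chr5:90903649-90903898 (plus) and Cxcl10 at chr5:92348890-92349139 (minus). Capitals mark matches on either strand to GAAANNGAAA (the interferon-stimulated response element), TTGCNNAA (C/EBP) or the NF-kB motif, which may overlap one another.
Saa3: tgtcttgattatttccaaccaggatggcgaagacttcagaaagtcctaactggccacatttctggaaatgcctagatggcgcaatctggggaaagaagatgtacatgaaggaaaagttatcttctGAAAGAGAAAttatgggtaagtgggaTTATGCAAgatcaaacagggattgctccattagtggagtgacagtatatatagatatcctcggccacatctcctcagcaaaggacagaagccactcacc
Lcn2: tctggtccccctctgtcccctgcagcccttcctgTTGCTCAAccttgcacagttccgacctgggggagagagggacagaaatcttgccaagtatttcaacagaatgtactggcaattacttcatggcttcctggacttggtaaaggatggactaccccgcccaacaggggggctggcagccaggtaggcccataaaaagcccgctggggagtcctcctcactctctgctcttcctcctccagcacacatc
Cxcl2: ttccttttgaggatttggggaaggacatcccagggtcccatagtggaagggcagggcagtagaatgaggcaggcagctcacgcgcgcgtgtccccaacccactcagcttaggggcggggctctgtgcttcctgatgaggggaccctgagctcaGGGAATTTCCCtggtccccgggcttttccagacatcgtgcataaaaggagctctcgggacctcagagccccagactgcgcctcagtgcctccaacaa
Cxcl10: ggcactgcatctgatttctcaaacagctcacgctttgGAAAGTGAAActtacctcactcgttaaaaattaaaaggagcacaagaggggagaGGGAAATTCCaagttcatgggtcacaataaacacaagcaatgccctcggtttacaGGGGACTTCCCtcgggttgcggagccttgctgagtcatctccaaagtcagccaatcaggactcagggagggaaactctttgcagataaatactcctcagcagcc
The Saa3 window held a response element 125 to 116 and a C/EBP match 99 to 92 bases before the start. Lcn2 held a C/EBP match 216 to 209 bases before it. Cxcl2 held 2 overlapping NF-kB matches 97 to 87 bases before it, and Cxcl10 a response element 213 to 204 bases before it and 3 NF-kB matches between 159 and 94. Of all 32851 windows of this length, 2.98% held the response element, 9.56% the C/EBP and 7.25% the NF-kB motif. RefSeq windows were matched for 8 of the 12 lowest genes, of which 5 held the response element (Cxcl10, Cxcl14, Rsad2, Saa3 and Spp1), 3 the C/EBP motif and 2 the NF-kB motif, and for all 12 highest genes, of which 1 (Dpp4), 0 and 1 (Igfbp5) did. Cxcl5, Hist1h2ap, Ccl2 and H2-Ab1 were not matched. The matches are descriptions of letters and do not show binding.

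In a list of chemokines and cytokines, 8 of 14 measured genes were lower and 1 was higher. The median log2 ratio was −1.19, against −0.02 over all genes. The monocyte attractant Ccl2 stood at 488 CPM at day 7 and 52.4 at day 14, 9.32-fold lower (8.43 to 10.3), and Ccl7, which acts on the same receptor, at 260 and 51.6 CPM, 5.04-fold lower (4.53 to 5.62). The neutrophil attractants were lower as well. Cxcl5 stood at 122 and 4.60 CPM (26.6-fold, 19.4 to 37.4), Cxcl2 at 307 and 19.7 CPM (15.6-fold, 13.3 to 18.3), and Cxcl1 at 368 and 150 CPM (2.45-fold, 2.28 to 2.63). Cxcl10, the interferon-induced attractant of T cells, stood at 266 and 28.6 CPM (9.29-fold, 8.12 to 10.7), Cxcl14 at 56.1 and 6.17 CPM (9.09-fold, 6.79 to 12.4), and Cxcl12, which retains leukocytes and progenitors, at 651 and 306 CPM (2.13-fold, 2.02 to 2.24). Ccl11, the eosinophil attractant eotaxin, was higher, at 22.5 and 115 CPM (5.12-fold, 4.22 to 6.28).

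Most day 7 UMIs of these chemokines lay in few cells, except for Cxcl12. The 5 cells with most UMIs held 33.9% of Cxcl12, 60.1% of Cxcl1, 69.6% of Ccl7, 72.0% of Cxcl2, 76.1% of Ccl11, 71.7% of Ccl2, 83.3% of Cxcl5, 91.5% of Cxcl10 and 98.6% of Cxcl14, and 1 cell held 85.5% of Cxcl10. Low levels of Cxcl2 were wider spread, with a UMI in 130 of 225 cells. The 51 day 7 cells with a Saa3 or Lcn2 UMI held 1286 CPM of Ccl2 and 728 of Cxcl10, against 72.6 and 25.1 CPM in the other 174. These sums are not a property of all 51 cells. The cell with 85.5% of Cxcl10 was among them through Lcn2 at 47.5 CPM, and held 14480 CPM of Ccl2. The 2 sets also differed in depth, with medians of 29061 and 7013 UMIs. Without the Saa3- or Lcn2-positive cells of both days, Ccl2 was 0.739 of its day 7 level at day 14, Cxcl10 1.17 and Cxcl14 2.09, and the list's median was 0.03. Cxcl2, Cxcl5 and Ccl11 held under all 5 alternatives, but the sizes differed. In cells of 10000 to 40000 UMIs, the ratio was 0.312 for Cxcl2 and 0.227 for Cxcl5, against 0.0642 and 0.0376 in all fibroblasts, and without cells holding leukocyte marker UMIs Cxcl2 stood at 0.117. Cxcl2 stood at 1888 and 3199 CPM in the leukocytes of days 7 and 14, and the part of leukocyte RNA in its fibroblast level was not tested.

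Acute phase and complement genes differed in both directions, with 5 of 13 measured genes lower, 2 higher and a median of 0.01 that was 0.92 without Saa3- or Lcn2-positive cells and −0.12 in cells of 10000 to 40000 UMIs. Besides Saa3 and Lcn2, the haemoglobin-binding Hp was lower, at 216 and 33.2 CPM (6.51-fold, 5.72 to 7.42), as were the serine protease inhibitors Serpina3g (11.7 and 0.673 CPM) and Serpina3n (72.8 and 32.0 CPM). The complement genes C4b (163 and 500 CPM, 3.07-fold, 2.85 to 3.31) and C1ra (130 and 320 CPM, 2.46-fold, 2.26 to 2.68) were higher. Hp alone held under all 5 alternatives, although Saa3 and Lcn2 could not be read without their own positive cells.

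Of 22 measured genes of the interferon response and antigen presentation, 11 were lower, none was higher and every ratio was under 1. The median was −1.04, and −0.50 without the 1% of cells with most UMIs of each gene. Genes named next are among the 11 unless stated. The antiviral genes Ifit1 (102 and 21.5 CPM, 4.75-fold, 4.01 to 5.63) and Isg15 (186 and 58.0 CPM, 3.20-fold, 2.87 to 3.57) were lower. So was the GTPase gene Iigp1 (117 and 34.9 CPM, 3.35-fold, 2.91 to 3.85). Rsad2, the antiviral enzyme viperin and no member of the list, was among the 12 lowest genes at 133 and 2.92 CPM (45.6-fold, 30.9 to 70.4), but 95.4% of its day 7 UMIs lay in 1 cell. Without the 1% of cells with most UMIs, its ratio was 0.733, and that of Ifit2 went from 0.297 to 1.62. Irgm1, another GTPase gene (65.2 and 22.0 CPM), was the 1 list member that held under all 5 alternatives, and Ifit1 and Isg15 had ratios of 0.552 and 0.562 in cells of 10000 to 40000 UMIs. H2-Ab1, which encodes a class II antigen chain of professional antigen-presenting cells, stood at 93.1 and 9.75 CPM (9.54-fold, 7.57 to 12.1). Leukocytes held 5065 and 4607 CPM of it, and the leukocyte marker lists moved with it, with 4 of 4 measured dendritic and B cell genes and 6 of 6 measured macrophage genes lower in the fibroblasts. Their part in this difference was not tested.

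**Figure D3:**
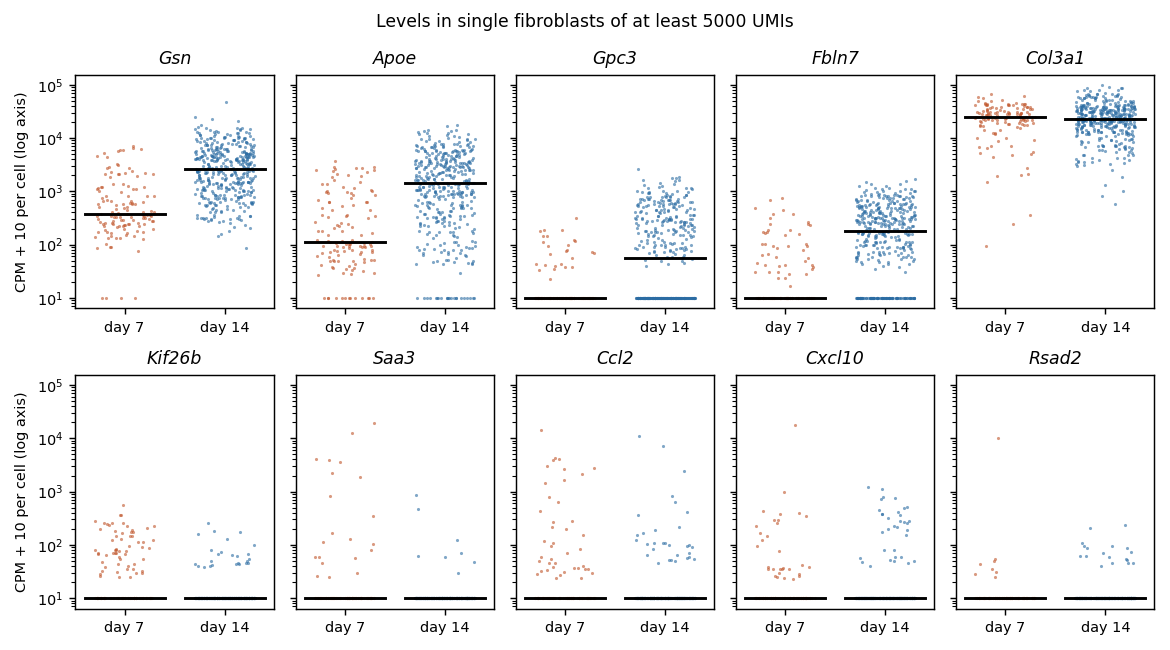
CPM plus 10 on a log axis in single fibroblasts of at least 5000 UMIs (129 at day 7, 424 at day 14) for 10 genes, with the median of each day as a black line. The medians of Gsn (366 and 2631 CPM) and Apoe (99.3 and 1420 CPM) were shifted as a whole, while the day 7 UMIs of Saa3, Cxcl10 and Rsad2 lay in few high cells.

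Proliferation genes were lower, with 16 of 18 measured genes lower, none higher and a median of −1.85. The median was −4.03 without the 5% deepest cells and −1.47 without Saa3- or Lcn2-positive cells. Birc5, a mitotic survivin, stood at 37.4 CPM at day 7 and 3.48 at day 14 (10.8-fold, 7.33 to 16.3). The DNA clamp-associated Pclaf stood at 38.4 and 4.82 (7.96-fold, 5.69 to 11.4). The ubiquitin-conjugating enzyme gene Ube2c stood at 54.9 and 9.53 (5.76-fold, 4.50 to 7.43), and the mitotic kinase gene Cdk1 at 36.6 and 6.73 (5.44-fold, 4.04 to 7.41). The list summed to 1550 CPM in day 3 and 118 in day 0 fibroblasts, and to 715 and 247 at days 7 and 14. At day 7, 5 cells held 74.6% of the UMIs of the proliferation marker Mki67, and all day 14 UMIs of it lay in 5 cells. Mki67, Cdk1, Cenpa, Birc5, Ube2c, Stmn1 and Tyms held under all 5 alternatives. Hist1h2ap, a replication-dependent histone gene among the 12 lowest, stood at 159 and 13.8 CPM, but 97.0% of its day 7 UMIs lay in 5 cells and its ratio was 1.34 without the Col2a1-positive cells, of which day 7 had 4.

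The fibrillar collagens were the most abundant of the matrix lists, at 62445 CPM summed at day 7 and 70304 at day 14. None of the 7 measured genes was higher or lower by 2-fold, and the median log2 ratio was 0.19. Col3a1, the chain of collagen III, stood at 24596 and 26763 CPM (1.09-fold, 1.08 to 1.10), Col1a1 at 17956 and 20496 (1.14-fold, 1.13 to 1.15) and Col1a2 at 16715 and 20758 (1.24-fold, 1.23 to 1.25). In cells of 10000 to 40000 UMIs, the ratio was 1.00 for Col1a1 and 0.916 for Col3a1. Of the minor fibrillar chains, which control fibril width, Col5a1 (1237 and 899 CPM) and Col5a2 (1789.6 and 1191 CPM) had ratios of 0.727 and 0.665, and Col5a3 (102 and 140 CPM) and Col11a1 (49.5 and 57.0 CPM) of 1.38 and 1.15. None of the 12 genes of a list of other collagens, which did not include Col6a6, Col10a1 or the cartilage collagens, reached 2-fold either, with a median of −0.17. Among them, the fibril-associated Col14a1 came closest (849 and 1694 CPM, ratio 1.996) and passed 2-fold in 6 of 17 alternatives, with ratios from 1.45 to 2.33, and the short-chain Col8a1 had a ratio of 0.727 (374 and 272 CPM).

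Of 17 measured genes that process and cross-link collagen, 4 were lower, 1 was higher and 12 were neither. The median was −0.34, and −0.07 in cells thinned to 1000 UMIs. Plod2, the lysyl hydroxylase of the collagen telopeptides, stood at 517 and 183 CPM (2.82-fold, 2.65 to 3.00), Loxl3, a lysyl oxidase, at 142 and 50.5 (2.81-fold, 2.49 to 3.16), P4ha3, a prolyl hydroxylase subunit, at 73.2 and 28.4 (2.58-fold, 2.19 to 3.04), and the chaperone gene Fkbp10 at 256 and 122 (2.11-fold, 1.94 to 2.28). The first 3 held under all 5 alternatives. Pcolce2, an enhancer of procollagen cleavage, was higher (121 and 296 CPM, 2.46-fold, 2.25 to 2.69), but not in cells of 10000 to 40000 UMIs, where its ratio was 1.47. None of 16 measured genes of endoplasmic reticulum chaperones and secretory stress reached 2-fold, and all 16 ratios were under 1. The chaperone gene Hspa5 stood at 1815 and 947 CPM (ratio 0.522, 0.507 to 0.538).

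Matricellular proteins, which sit in the matrix and signal to cells, divided by member. Of 17 measured genes, 7 were lower and 3 higher, with a median of −0.36. The wound-associated Tnc (tenascin C) stood at 210 and 52.0 CPM (4.04-fold lower, 3.62 to 4.52), and Thbs1 (thrombospondin 1) at 447 and 109 (4.09-fold, 3.79 to 4.42). Neither had a UMI in day 0 fibroblasts. The CCN proteins Ctgf (2558 and 1013 CPM), Wisp1 (198 and 66.7) and Wisp2 (989 and 267) were 2.53-, 2.96- and 3.70-fold lower, and Cthrc1, a secreted protein of activated fibroblasts, stood at 1539 and 723 CPM (2.13-fold lower). Spp1 (osteopontin) stood at 325 and 9.42 CPM (34.5-fold, 27.7 to 43.5), with 70.7% of its day 7 UMIs in 5 cells and a 0.426 ratio in cells of 10000 to 40000 UMIs, and at 497 and 244 CPM in leukocytes. Thbs4 (42.8 and 181 CPM, 4.24-fold), Tnxb (111 and 421, 3.80-fold) and Smoc2 (150 and 420, 2.79-fold) were higher. The Thbs4 ratio was 47.3 without the Saa3- or Lcn2-positive cells and 2.04 in cells of 10000 to 40000 UMIs, and 5 cells held 97.7% of its day 7 UMIs. Postn (periostin), a marker of matrix-forming fibroblasts, stood at 2389 and 2035 CPM (ratio 0.852, 0.833 to 0.872). All called members held under all 5 alternatives but Cthrc1 and Smoc2.

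Of 15 measured elastic fibre genes, 3 were lower and 2 higher, with a median of −0.14. Eln, the elastin gene, stood at 14160 CPM at day 7 and 4388 at day 14 (3.23-fold lower, 3.19 to 3.27), against 1940 at day 0 and 1914 at day 3. It was seen in 218 of 225 and 457 of 492 fibroblasts, and its ratio ran from 0.217 to 0.316 under the 5 alternatives. Ltbp2, which binds microfibrils, stood at 432 and 111 CPM (3.89-fold lower, 3.60 to 4.19), and Emilin1, which deposits elastin, at 172 and 77.3 (2.22-fold lower, 2.01 to 2.46). The fibulins Efemp1 (58.5 and 162 CPM, 2.78-fold) and Fbln1 (484 and 996, 2.06-fold) were higher, and the other 10 genes reached neither threshold. Neither fibulin held under all 5 alternatives, with a ratio of 1.66 for Efemp1 in cells of 10000 to 40000 UMIs, and Emilin1 had a ratio of 0.524 without Saa3- or Lcn2-positive cells. Of the 7 small leucine-rich proteoglycans, Ogn (osteoglycin, 460 and 1312 CPM, 2.85-fold, 2.73 to 2.98) and Omd (osteomodulin, 21.3 and 64.2, 3.02-fold, 2.45 to 3.75) were higher and none was lower, with a median of 0.86. Aspn, Podn and Fmod had ratios of 1.69, 1.81 and 1.82, Prelp of 1.04 and Bgn (biglycan, 4740 and 2629 CPM) of 0.555.

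Among matrix proteases and their inhibitors, 2 of 16 were higher, 3 were lower and the median was 0.03. The protease genes Mmp3 (209 and 507 CPM, 2.42-fold, 2.26 to 2.59) and Adamts5, an aggrecanase (139 and 347, 2.50-fold, 2.31 to 2.72), were higher, at 1.43 and 1.72 in cells of 10000 to 40000 UMIs. The metalloprotease inhibitor Timp1 (997 and 264 CPM, 3.77-fold lower, 3.59 to 3.97) and the metalloprotease gene Adam12 (61.0 and 24.1, 2.53-fold lower) were among the lower genes. Timp1 had a ratio of 0.504 without Saa3- or Lcn2-positive cells and 0.514 in cells of 10000 to 40000 UMIs.

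Of 13 measured genes associated with progenitor-like adventitial fibroblasts, 6 were higher, 7 reached neither threshold and none was lower, with a median of 0.88. Clec3b, which encodes the plasminogen-binding tetranectin, stood at 325 and 1291 CPM (3.97-fold, 3.77 to 4.18) and was seen in 100 and 415 cells. Among cells of at least 5000 UMIs, Clec3b was seen in 61.2% at day 7 and 89.2% at day 14. Day 0 fibroblasts held 2239 CPM, and in cells of 10000 to 40000 UMIs the difference was 2.35-fold. Pi16, a secreted peptidase inhibitor, stood at 679 and 1361 CPM (2.00-fold, 1.93 to 2.08), the semaphorin gene Sema3c at 75.6 and 181 (2.40-fold, 2.14 to 2.69), the mitochondrial protein gene Efhd1 at 8.75 and 25.9 (2.96-fold, 2.14 to 4.19), and the protein C receptor gene Procr at 11.7 and 28.4 (2.42-fold). Dpp4, Clec3b and Efhd1 held under all 5 alternatives, and Sema3c had a ratio of 1.57 in cells of 10000 to 40000 UMIs. Over all 17 alternatives that were run, the Efhd1 ratio went from 1.37 to 8.15, and Efhd1 lost its call in 2. The surface genes Cd34 and Ly6a had ratios of 1.49 and 0.986. At day 14, the 94 Dpp4-positive cells (19.1%) held 3221 CPM of Pi16, 670 of Sema3c and 2850 of Igfbp5, against 781, 29.0 and 518 CPM in the other 398 cells, while Apoe went the other way (588 and 2902 CPM). These 2 sets of cells came from 1 library and differed in depth, with medians of 23245 and 18013 UMIs.

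Of 15 measured genes of activated fibroblasts and the actin cytoskeleton, 7 were lower, 7 neither and 1 higher, with a median of −0.87. S100a4, a calcium-binding protein of motile cells, stood at 570 and 122 CPM (4.67-fold, 4.35 to 5.01), the membrane protein gene Lrrc15 at 28.2 and 7.06 (4.00-fold, 2.95 to 5.47), the actin cross-linker gene Actn1 at 392 and 137 (2.86-fold, 2.66 to 3.08) and the tropomyosin gene Tpm2 at 199 and 94.5 (2.11-fold, 1.92 to 2.31). S100a4, Lrrc15, Actn1 and Ncam1 held under all 5 alternatives, and Tpm2 had a ratio of 0.883 in cells of 10000 to 40000 UMIs. Fap, a surface protease of activated fibroblasts, was higher (56.3 and 121 CPM, 2.15-fold, 1.89 to 2.46). Acta2 was part of the selection and is given as a description, at 577 and 166 CPM. The smooth muscle and pericyte markers include the 4 genes limited by the rule, Acta2 among them, so their counts are a description. Of 5 measured markers, 3 were lower and none was higher, against 5.18% and 3.97% of all genes. Their part in the differences of the activated fibroblast and actin list was not tested.

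Of 15 measured genes of lipid handling and antioxidant defence, 7 were higher, 2 lower and 6 neither, with a median of 0.70. Gsn, the actin-severing gelsolin, which also circulates in plasma, stood at 720 and 3461 CPM (4.80-fold, 4.64 to 4.97), seen in 164 and 476 cells and at 10476 CPM at day 0. Among cells of at least 5000 UMIs, Gsn was seen in 96.9% at day 7 and 100% at day 14, so the difference in cell numbers went with depth. Lpl (lipoprotein lipase) stood at 90.3 and 442 CPM (4.89-fold, 4.44 to 5.40), Apod (apolipoprotein D) at 65.6 and 230 (3.50-fold), Gstm1 (a glutathione transferase) at 70.6 and 201 (2.85-fold), and Gpx3 and Abca1 were 2.12- and 2.14-fold higher. In cells of 10000 to 40000 UMIs, Gsn was 2.95-fold and Lpl 3.38-fold higher. The metal-binding Mt2 (595 and 165 CPM, 3.61-fold, 3.39 to 3.85) and the haem oxygenase gene Hmox1 (84.7 and 31.8, 2.66-fold) were lower. Apoe, Apod, Lpl and Gsn held under all 5 alternatives, and Mt2 had a ratio of 0.758 without Saa3- or Lcn2-positive cells. Of 15 measured glycolysis and hypoxia genes, 5 were lower and none higher, with a median of −0.86. The median was −0.24 in cells of 10000 to 40000 UMIs. The glucose transporter gene Slc2a1 (14.3 and 3.92 CPM), Pfkl (23.3 and 6.84), Gapdh (704 and 271), Eno1 (173 and 66.0) and Pkm (304 and 141) were the 5, and of these Pfkl alone held under all 5 alternatives, although its ratio was 1.83 in cells thinned to 1000 UMIs.

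**Figure D4:**
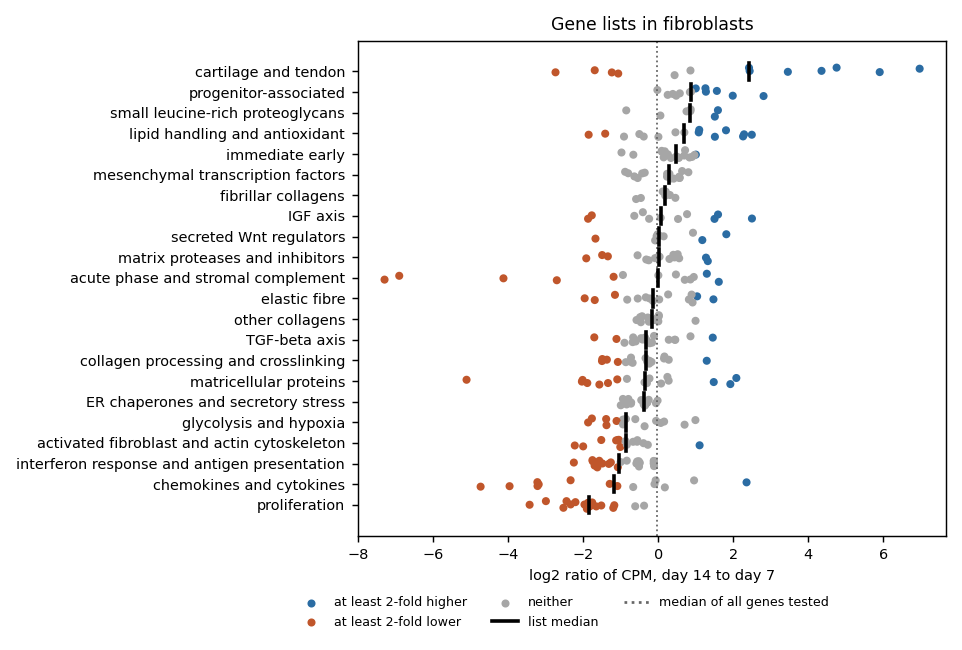
Log2 ratio of CPM, day 14 to day 7, for each measured gene of 22 lists, with genes at least 2-fold higher in blue, at least 2-fold lower in orange, list medians as black bars and the median of all genes as a dotted line. Proliferation (−1.85) and chemokines and cytokines (−1.19) lay lowest, fibrillar collagens at 0.19 and progenitor-associated genes at 0.88.

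Growth factor pathways differed in single members. In the IGF list, 3 of 11 genes were higher and 2 lower, with a median of 0.07. The binding proteins Igfbp6 (364 and 1101 CPM, 3.03-fold, 2.88 to 3.18) and Igfbp3 (23.1 and 65.4, 2.83-fold) were higher beside Igfbp5, and Igfbp2 (39.4 and 11.5, 3.41-fold) and Pappa, the protease that cleaves binding proteins (20.9 and 5.72, 3.65-fold), were lower. Igfbp5, Igfbp6, Igfbp2 and Pappa held under all 5 alternatives. Over all 17 alternatives that were run, Igfbp2 and Pappa each lost the call in 2, with ratios up to 0.610. In the TGF-beta list, Fst, the activin antagonist follistatin, was higher (106 and 291 CPM, 2.74-fold, 2.50 to 3.02), and the ligand genes Tgfb2 (144 and 44.2, 3.25-fold lower, 2.87 to 3.69) and Inhba, an activin chain (64.4 and 29.8, 2.16-fold lower), were lower among 18 measured genes, with a median of −0.32. Fst and Tgfb2 held under all 5 alternatives, and Inhba had a ratio of 0.897 in cells of 10000 to 40000 UMIs and 0.900 without Saa3- or Lcn2-positive cells. Among 9 secreted Wnt regulators, the antagonists Sfrp1 (160 and 362 CPM, 2.26-fold, 2.09 to 2.45) and Dkk2 (17.3 and 61.0, 3.53-fold, 2.81 to 4.47) were higher and Frzb (127 and 40.0, 3.18-fold lower, 2.79 to 3.63) lower, with a median of 0.03. Dkk2 and Frzb held under all 5 alternatives, and Sfrp1 had a ratio of 1.65 in cells of 10000 to 40000 UMIs. None of 17 mesenchymal transcription factors reached 2-fold, where 9.15% of all genes were called, and their median was 0.29. Prrx1, which marks mesenchymal cells, had a ratio of 1.75 (262 and 459 CPM) and Runx1 of 0.575 (187 and 107 CPM). Of 17 immediate early genes, which respond within minutes to stress and to tissue digestion, Fos was higher (1037 and 2081 CPM, 2.01-fold, 1.95 to 2.07) and none was lower. The list's median was 0.49, with 15 ratios over 1. The Fos ratio was 1.59 in cells of 10000 to 40000 UMIs and 1.81 without Saa3- or Lcn2-positive cells, so it did not hold under all 5 alternatives.

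Kif26b, a kinesin of the Wnt5a pathway, and H2-Ab1 were the most evenly spread of the 12 lowest genes at day 7. Kif26b stood at 53.7 and 4.82 CPM (11.1-fold lower, 8.05 to 15.7) and was seen in 68 of 225 and 25 of 492 cells, with 25.6% of its day 7 UMIs in 5 cells against 22.9% for H2-Ab1. The Kif26b ratio ran from 0.0584 to 0.102 under the 5 alternatives, and leukocytes held 0.874 and 0 CPM. Of the 12 lowest genes, Spp1, Cxcl5, Cxcl2, Kif26b and H2-Ab1 held under all 5 alternatives.

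Cells positive for Col2a1, the collagen of cartilage, were left out as a check. They numbered 4 of 225 at day 7 and 21 of 492 at day 14. Col2a1 stood at 1.59 and 200 CPM, and 1 cell held 98.9% of its 1782 day 14 UMIs, so that the other positive cells held few UMIs each. The 21 cells held 436 CPM of the cartilage matrix gene Chad, 245 of the aggrecan gene Acan and 222 of Cnmd (chondromodulin), against 0.119, 2.13 and 0.119 CPM in the other 471, while Col1a1 (18120 and 20633 CPM) was close. Dcn stood at 12930 and 12962 CPM, but it was used to select both sets of cells and is given as a description. These sums are not a property of all 21 cells, as 1 cell held 99.5% of the day 14 UMIs of Chad, 86.1% of Acan and 99.1% of Cnmd, and chondrocyte markers exceeded 0.5% of the UMIs in 1 day 14 cell. Of the 13 measured cartilage and tendon genes, 7 were higher and 4 lower, with a median of 2.42 that was −1.23 without the Col2a1-positive cells. Cnmd was at 0 UMIs at day 7 and 109 at day 14, at least 20.5-fold higher taking 3 counts for 0. Matn4 (6.36 and 34.5 CPM, 5.43-fold) and the cartilage intermediate layer gene Cilp (53.3 and 286, 5.36-fold) held under all 5 alternatives as higher, as did the tendon regulators Scx (24.7 and 3.70, 6.66-fold) and Tnmd (38.0 and 18.2, 2.09-fold) as lower. The chondrocyte regulator gene Sox9 was lower as well (68.6 and 29.2 CPM, 2.35-fold).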

How the data were processed

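The deposited matrices held unnormalized UMI counts, by gene and barcode, made by the authors with Cell Ranger (version 3.0.2 per the file headers, while the study's methods name an earlier release) from droplet libraries of the 3′ v2 chemistry, 1 library per day. The libraries held 27973418 UMIs at day 7 and 13329564 at day 14, over 31053 listed genes. No deposited cell annotation was used.

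Fibroblasts were selected as described above, their counts summed per day and scaled to CPM, and each ratio given an exact conditional binomial (Clopper-Pearson) 95% interval, with scipy 1.17.1. PCR copies were collapsed by UMI, and the intervals cover counting error only. With 1 library per day there was no test. The calculation was tested on simulated Poisson counts drawn from the summed levels of the genes, without cells. Such counts could not test genes whose UMIs lay in few cells. Doublet scores came from Scrublet in scanpy 1.11.5, whose own threshold marked 2 barcodes in each of the day 7 and day 14 libraries, so the highest scores (0.8% for each 1000 barcodes) were removed as an alternative only. Normalization factors for another alternative came from edgeR 4.0.16. For comparison, leukocytes were cells with at least 2 Ptprc UMIs and under 0.1% of fibroblast genes (1526 at day 7 and 254 at day 14, with medians of 9628.5 and 7340 UMIs).

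Named genes were the 12 higher and the 12 lower ones of at least 50 CPM whose interval lay farthest from 1, without selection genes and Col2a1, and up to 4 members of each list by the same bound. Other list members were named after their values were seen. The cells and all lists were chosen with earlier results of these data known. Leaving out the genes' top 1% of cells, depth windows, Saa3- or Lcn2-positive cells and shared barcodes were alternatives chosen after seeing the data. 1 list member is not reported here.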

Additional observations from a re-analysis of the deposited data

Results flagged for a closer look

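For 5 genes the fibroblasts and the cells positive for muscle genes went opposite ways between days 7 and 14, each at least 2-fold with an interval that excluded 1. The muscle gene-positive cells numbered 16 at day 7 and 42 at day 14, and the difference between both kinds of cells was not tested. How many genes were compared in both kinds of cells, or went the same way, is not given here. The 5 genes can therefore not be set against a share of all genes. The part of single cells in the muscle gene-positive ratios is not given either. The ratio of day 14 to day 7 for Hspb7, a small heat shock protein gene of muscle, was 0.454 in fibroblasts and 2.18 in the muscle gene-positive cells. For the transcription factor gene Foxc2 it was 0.332 and 2.17. For Nid1, the basement membrane protein nidogen, it was 2.26 in fibroblasts and 0.396 in the other cells, for Edn1, the vasoconstrictor endothelin, 2.04 and 0.0708, and for Cbr3, a carbonyl reductase gene, 2.14 and 0.368.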

How the results depend on the processing

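Each day had 1 library, so the spread between libraries is unknown, and depth limited genes carried by few cells. No paired analysis was possible because each day had 1 library. Of 108 named genes, 79 were called, and 39 of these kept their call under every alternative that gave a value. The count of lower genes was 1413 when CPM were averaged over cells and 304 without the top 1% of cells of each gene. With no filter beyond 1 UMI, 749 genes were higher and 1267 lower, and with at least 50 CPM 142 and 143. The day 7 fibroblast share was 7.63% with selection genes at 0.5% or more, 8.77% with no Ptprc UMI, 8.62% with leukocyte genes under 0.5%, and 21.1% with limits of 200 genes and 20% mitochondrial UMIs. Some list medians (log2) turned sign, among them medians near 0. With each cell thinned to 1000 UMIs they were 0.22 for elastic fibre, −0.84 for cartilage and tendon, −0.059 for immediate early, 0.045 for TGF-beta and −0.13 for mesenchymal transcription factor genes. With CPM averaged over cells they were 0.11 for elastic fibre and −0.10 for immediate early genes. The cartilage and tendon median was −1.23 without Col2a1-positive cells, −1.11 without the 5% deepest cells, −0.37 without the top 1% of cells and −0.47 without Saa3- or Lcn2-positive cells. The matrix protease median was −0.19 in thinned cells, −0.17 in cells of 10000 to 40000 UMIs and −0.050 without the 5% deepest cells, the acute phase median at its lowest −0.12 in cells of 10000 to 40000 UMIs, and the Wnt regulator median −0.053 without Saa3- or Lcn2-positive cells. The IGF median was −0.046 with selection genes at 0.5% or more and −0.21 in cells of 10000 to 40000 UMIs. Without Saa3- or Lcn2-positive cells the IGF median was −0.051, and the chemokine and cytokine median was 0.028. The ratios of single genes that turned were 1.87 for Rsad2 in cells of 10000 to 40000 UMIs, 1.34 for Hist1h2ap without Col2a1-positive cells, and 1.37 for Cxcl14 and 1.83 for Pfkl in thinned cells. Without Saa3- or Lcn2-positive cells they were 1.33 for Hist1h2ap, 1.17 for Cxcl10, 2.09 for Cxcl14, 0.190 for Chad and 1.61 for Ifit2. Chad was 0.277 without Col2a1-positive cells and 0.255 without the 5% deepest cells. Ifit2 was 1.54 without the highest doublet scores, 1.49 in cells of 10000 to 40000 UMIs and 1.62 without its top 1% of cells. The cause of these shifts was not tested.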
